A study of Mus musculus with 4 samples.

Results

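Rab GTPases were followed in mouse dendritic cells, which take up antigen and present it to T cells. Members were all genes whose symbol was Rab followed by a number, with or without a closing letter and digit, and which had at least 1 array probe set annotated to that symbol alone. Of 59 such symbols in the mouse gene table, 50 had such a probe set, with 95 probe sets between them. Of these 50 genes, 42 read above the floor of 33.3 (the signal below which values were not ranked) on at least 1 array, out of 9473 genes measured in all. The rule used no comparison between groups. Rab19, Rab26, Rab35, Rab36, Rab39, Rab39b, Rab42, Rab44 and Rab9b were not analysed here.

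Cells positive for CD11c and deficient in Il10 on both alleles were kept for 6 h in media alone (MEDIA) or under SEA, LPS or both (SEA/LPS). All 4 groups share the Il10 deficiency, and each was measured on 1 array of total RNA. LPS, lipopolysaccharide, is a bacterial outer membrane component sensed through TLR4. The labels expand SEA no further and give no dose, tissue of origin, age, or number of animals or cultures. With 1 sample in each group no test was possible, so no difference below has a replicate check. The number of arrays limits the precision. In such bulk samples fewer cells of a type and less RNA per cell cannot be told apart.

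Rab proteins are small GTPases that mark the membranes of the secretory and endocytic routes. In the GTP-bound state each recruits effectors, such as motors and tethers, that move a vesicle and join it to its target. Exchange factors switch them on, GTPase-activating proteins switch them off, and GDI proteins extract the prenylated, inactive form from membranes. In dendritic cells these routes carry engulfed material to lysosomes, bring TLR4 and peptide-loaded MHC molecules to the surface and release cytokines.

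The labelled cell type was checked against its markers. Itgax, which encodes CD11c, read 2732 in MEDIA, 2181 under SEA, 1851 under LPS and 2093 under SEA/LPS. All 9 dendritic markers lay above the floor on at least 1 array, with summed signals from 17396 to 23599 across arrays, as did all 5 macrophage markers, with sums from 6586 to 7780. Most of the dendritic sum came from Cd74 and H2-Ab1 (8639 and 5558 in MEDIA). Flt3 (30.7 to 62.2) and Cd209a (36.3 to 49.8) read near the floor, while the macrophage marker Csf1r read from 4520 to 5706. Single dendritic markers moved more than their sum. Irf8 was 3.90-fold higher with LPS than in MEDIA, and for SEA/LPS over LPS, where Rab1b and Rab4b were lower, Irf8 was 2.001-fold and H2-Ab1 2.36-fold lower. Ly75 was at least 2.55-fold higher with LPS, and Batf3 read -1.33 for SEA/LPS over MEDIA. For SEA/LPS over MEDIA the macrophage marker Fcgr1 (2.57-fold) and the neutrophil marker S100a8 (2.14-fold) were also higher. The other macrophage markers stayed within 2-fold. The part of these in the Rab values was not tested. The T cell markers Cd3d, Cd3e and Cd3g lay at or under the floor on every array. Cd8a, however, read up to 61.7 (with LPS) and Thy1 up to 47.6 (with SEA). On at least 1 array, 2 of 6 T, 3 of 5 B, 3 of 4 NK and 3 of 4 mast cell markers lay above the floor. So did 4 of 6 neutrophil, 2 of 4 fibroblast and 1 of 2 erythroid markers. The sums of these 7 lists ran from 19.1 to 407. The highest neutrophil sum was with SEA/LPS (407, against 255 in MEDIA), and its part in the results was not tested. The 3' to 5' signal ratio of Gapdh, which goes up as RNA degrades, was 2.21, 2.69, 2.42 and 3.12 in MEDIA, SEA, LPS and SEA/LPS, so the highest ratio belongs to the array on which Rab1b and Rab4b were low. Its part in those values was not tested.

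Most Rab genes were not counted at 2-fold in any comparison, but the same joint count was not made over all genes. By comparison, the share of Rab genes counted was 0% for SEA over MEDIA (beside 1.28% of all genes) and 16.7% for LPS over MEDIA (beside 14.5%). It was 4.76% for SEA/LPS over LPS (beside 4.87%) and 21.4% for SEA/LPS over MEDIA (beside 11.6%). Of 42 measured genes, 36 lay above the floor on all 4 arrays, and 29 were not counted at 2-fold in any comparison. Of these 29, 5 (Rab3a, Rab5b, Rab17, Rab37, Rab38) were at the floor on 1 or more arrays, so that their differences there are lower bounds. The other 13 fell into 3 patterns: signals higher on 1 or both arrays with LPS (Rab32, Rab12, Rab21, Rab15, Rab20, Rab5a, Rab8b, Rab10), signals lower on 1 or both (Rab7b, Rab40c, Rab31), and signals low on the SEA/LPS array alone (Rab1b, Rab4b). Differences below are of log2 signal with values under the floor raised to it, and a gene is counted when it differs by 2-fold or more.

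**Figure D1:**
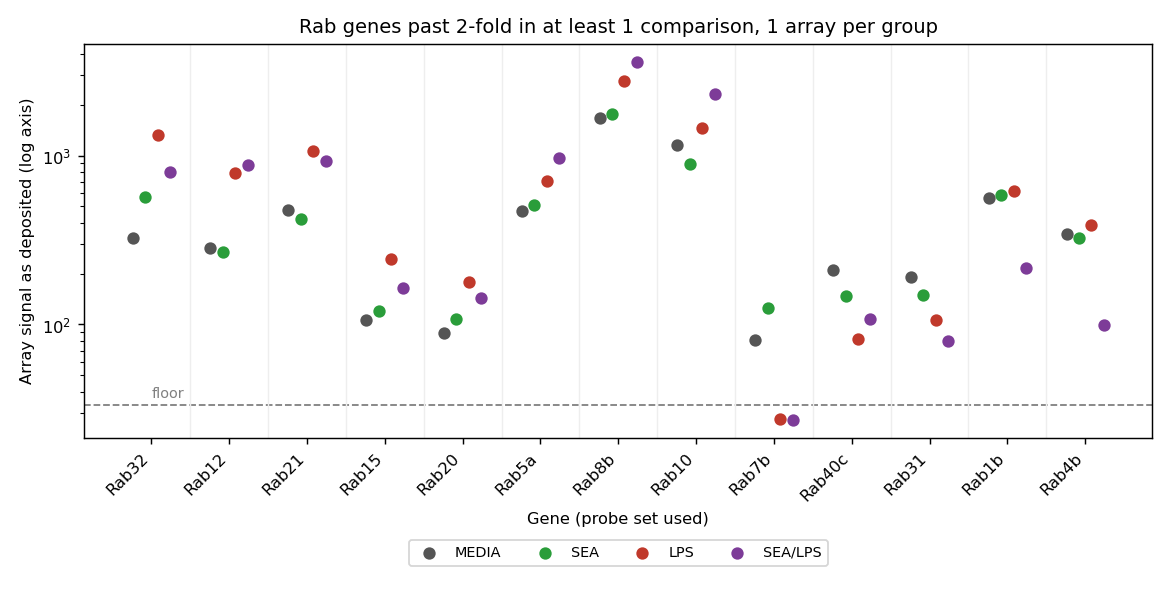
Array signal as deposited (log axis) of the 13 Rab genes at 2-fold or more in at least 1 comparison, 1 point per group and 1 array per group, with the floor of 33.3 as a dashed line. Rab32 and Rab12 are higher on both arrays with LPS, Rab7b lies under the floor on both, and Rab1b and Rab4b are low on the SEA/LPS array alone.

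LPS over MEDIA asks how the vesicle traffic machinery differs after the bacterial stimulus. Of 42 Rab genes, 5 were higher (11.9%, against 6.06% of all genes measured) and 2 lower (4.76%, against 8.43%). In either direction this made 7 genes, or 16.7%, beside 14.5% of all genes, so the total was near the background. The median difference was 0.12 for the Rab genes and -0.06 for all genes. Scaling changed that split: with arrays scaled to the hybridisation controls, 1 of 43 Rab genes was higher (Rab32) and 6 were lower, while 2.98% of all genes were higher and 25.5% lower and their median moved to -0.56. A further setting left out flagged probe sets, those with names ending in _a_at, _s_at or _x_at. There 3 of 37 were higher (Rab20, Rab21, Rab32) and 5 lower (Rab14, Rab18, Rab3d, Rab40c, Rab7b), beside 6.02% and 8.49% of all genes. Relative to that of all genes, the Rab median was 0.17 as deposited and 0.15 with scaling to the hybridisation controls. Without flagged probe sets it was 0.12.

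Rab32 had the largest difference among the members. It regulates the biogenesis of lysosome-related organelles and is recruited to phagosomes that hold bacteria. Its signal was 326 in MEDIA, 571 under SEA, 1331 under LPS and 799 under SEA/LPS. The MEDIA array was lowest and every stimulated array lay above it. Over MEDIA it was 1.75-fold higher under SEA, 4.08-fold under LPS and 2.45-fold under SEA/LPS, and SEA/LPS read 1.67-fold lower than LPS. The difference for LPS over MEDIA stayed at 2-fold or more under all 9 alternative settings (1.48 to 2.17 log2). Several of these could not change it, since Rab32 has 1 probe set, not flagged and above both alternative floors. That for SEA/LPS over MEDIA went from 1.29 to 0.98 under scaling to the hybridisation controls.

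Rab12 acts between recycling endosomes and lysosomes, where it directs the transferrin receptor to breakdown. It read 284 in MEDIA, 268 under SEA, 791 under LPS and 882 under SEA/LPS. The 2 arrays without LPS and the 2 with LPS form separate ranges, and the differences over MEDIA were 1.48 with LPS and 1.64 with SEA/LPS. Scaling to the hybridisation controls brought the first to 0.93. The gene has a single probe set here, of the flagged class (ending in _a_at).

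Rab21, an early endosome GTPase that carries integrins, read 476 in MEDIA, 422 under SEA, 1066 under LPS and 933 under SEA/LPS. The values with LPS lay above both values without it, by 1.16 log2 for LPS over MEDIA and by 0.97, just under 2-fold, for SEA/LPS over MEDIA. A further probe set of Rab21 read 0.90 and 0.79. Rab20, which acts in phagosome maturation, read 88.5, 108, 179 and 144 in MEDIA, SEA, LPS and SEA/LPS. At 2.02-fold it was the member just inside the threshold for LPS over MEDIA, and Rab9, at 1.93-fold, was just outside.

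Rab15, a GTPase of early and recycling endosomes, read 106 in MEDIA, 121 under SEA, 246 under LPS and 165 under SEA/LPS. The LPS array was the highest, and the SEA/LPS array lay between it and the arrays without LPS. The difference was 1.21 for LPS over MEDIA, 0.64 for SEA/LPS over MEDIA and -0.58 for SEA/LPS over LPS. Its single probe set is also of the flagged class (ending in _a_at). Under scaling to the hybridisation controls the LPS difference of Rab21, Rab15 and Rab20 was under 2-fold but above 0.

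The upstream sequences of these 5 genes are shown because they had the higher signals with LPS in common. Each is the stretch of 250 bases before a transcript start listed by RefSeq on mouse build GRCm38.p6, 5′ to 3′ in the direction of the gene. Capitals mark matches on either strand to the letters GGGANNNNCC (NF-kappaB), TGANTCA (AP-1), TTTCNNTTTC (ISRE, the interferon-stimulated response element), CACGTG (E-box) and GGGCGG (GC box). Rab15 has 4 listed starts, and the stretch shown is the one with a match to the NF-kappaB letters.
Rab32, chr10:10558208-10558457, minus strand: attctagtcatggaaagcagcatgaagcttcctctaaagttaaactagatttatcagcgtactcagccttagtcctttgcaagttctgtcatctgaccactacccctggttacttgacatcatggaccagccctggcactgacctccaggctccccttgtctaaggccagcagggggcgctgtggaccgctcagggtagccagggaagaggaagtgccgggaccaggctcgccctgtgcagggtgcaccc
Rab12, chr17:66519671-66519920, minus strand: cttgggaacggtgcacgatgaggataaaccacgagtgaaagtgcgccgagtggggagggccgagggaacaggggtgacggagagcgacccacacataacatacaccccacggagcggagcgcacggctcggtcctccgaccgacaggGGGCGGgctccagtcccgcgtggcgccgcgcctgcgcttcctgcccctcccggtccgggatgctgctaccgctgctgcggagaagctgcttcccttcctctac
Rab21, chr10:115315592-115315841, minus strand: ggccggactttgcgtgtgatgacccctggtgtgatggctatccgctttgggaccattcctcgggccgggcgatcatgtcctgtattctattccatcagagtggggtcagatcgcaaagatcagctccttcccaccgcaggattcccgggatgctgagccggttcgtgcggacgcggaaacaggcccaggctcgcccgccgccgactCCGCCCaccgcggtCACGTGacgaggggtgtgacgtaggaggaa
Rab20, chr8:11478641-11478890, minus strand: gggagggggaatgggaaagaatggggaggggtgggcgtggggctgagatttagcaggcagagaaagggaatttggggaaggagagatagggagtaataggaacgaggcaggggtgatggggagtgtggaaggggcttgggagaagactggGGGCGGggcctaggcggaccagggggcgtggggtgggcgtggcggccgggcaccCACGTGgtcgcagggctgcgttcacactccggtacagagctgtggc
Rab15, chr12:76818375-76818624, minus strand: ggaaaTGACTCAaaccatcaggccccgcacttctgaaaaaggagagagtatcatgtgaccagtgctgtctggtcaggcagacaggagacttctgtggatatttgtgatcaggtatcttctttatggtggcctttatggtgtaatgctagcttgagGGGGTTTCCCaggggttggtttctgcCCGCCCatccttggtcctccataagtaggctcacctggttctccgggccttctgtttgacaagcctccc

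The stretch of Rab32 held no match to any of the 5 motifs, and that of Rab12 held a GC box match alone. Rab20 and Rab21 each held an E-box match, which began 46 and 30 bases before the start. The NF-kappaB match of Rab15 began 95 bases before that start and its AP-1 match 245 bases before it. Among the 42 measured Rab genes, 37 had an entry in the sequence table (Rab2a, Rab7b, Rab18, Rab37 and Rab38 had none). Over all their starts, 5 of these 37 genes (13.5%) held the NF-kappaB letters (Rab5c, Rab7, Rab15, Rab31, Rab34), beside 19.7% of all 27025 genes in the table. The AP-1 letters were held by 2 (5.41%, beside 7.82%), the ISRE letters by 0 (beside 3.46%) and the E-box letters by 5 (13.5%, beside 6.86%). GC box letters were held by 28 of the 37 (75.7%, beside 35.4%), and the median GC content was 60.8% over Rab stretches and 52.4% over all. A match is a description of letters, and no match says only that these letters are not in this window.

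The 2 genes lower for LPS over MEDIA were Rab7b and Rab40c. Rab7b, a late endosomal GTPase known in macrophages for promoting the lysosomal breakdown of TLR4, read 81.2 in MEDIA and 125 with SEA. It was at the floor on both arrays with LPS, and so at least 2.44-fold lower than in MEDIA on each. Since Rab7b passed the floor only on the arrays without LPS, no other direction was possible there. Its other probe set read 96.8 in MEDIA and 52.6 with SEA and was likewise at the floor on both arrays with LPS, so the 2 probe sets gave the same order for LPS but opposite orders for SEA over MEDIA (0.62 and -0.88). With the floor raised to the 60th percentile of all signals the difference was -0.11, since the MEDIA signal then lay close to the floor.

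Rab40c, which carries a SOCS box that links it to a ubiquitin ligase, read 209 in MEDIA, 147 under SEA, 81.7 under LPS and 108 under SEA/LPS. MEDIA was highest and both arrays with LPS lay below both without it, at -1.36 for LPS and -0.96 for SEA/LPS over MEDIA. A further probe set gave -1.31 and -1.13. Rab31, which serves traffic between the Golgi and endosomes, read 192, 149, 106 and 79.3 in MEDIA, SEA, LPS and SEA/LPS. Its difference was -0.86 for LPS over MEDIA and -1.27 for SEA/LPS over MEDIA, but its dimmer probe set gave 0.33 and -0.29. Rab3d, a secretory granule GTPase, lay just outside the threshold with 289 in MEDIA, 272 under SEA, 148 under LPS and 149 under SEA/LPS (1.95-fold lower with LPS). Its 3 other probe sets did not share a direction for LPS over MEDIA, at -1.18, -0.50 and 0.18.

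SEA over MEDIA gave 0 Rab genes at 2-fold or more, where 1.28% of all genes were called (0.644% higher and 0.633% lower). The 36 genes above the floor on all 4 arrays lay between -0.51 and 0.81. The highest of the members was Rab32, followed by Rab33a (1.64-fold), a Golgi GTPase, and the lowest were Rab3a and Rab5b. Rab3a, a GTPase of synaptic and other regulated secretion, read 63.5 in MEDIA and was at the floor on the other 3 arrays, so at least 1.91-fold lower on each. Since Rab3a passed the floor in MEDIA alone, no other direction over MEDIA was possible. Rab5b, an early endosome GTPase, read 58.1 in MEDIA and 44.8 with LPS and was at the floor with SEA and SEA/LPS. The median over the 42 Rab genes was 0.07, beside 0.00 for all genes, a gap of 0.07. Under scaling to the hybridisation controls the median of all genes went to -0.06, and the gap was 0.06.

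The effect of adding SEA to LPS is read from SEA/LPS over LPS. Of the 42 Rab genes 2 were lower (4.76%, beside 3.47% of all genes) and 0 higher (beside 1.39%). In either direction the share was 4.76% beside 4.87% of all genes. Both genes had a signal with SEA alone close to MEDIA, and both read highest with LPS alone.

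Rab1b, which with Rab1a controls transport from the endoplasmic reticulum to the Golgi, read 561 in MEDIA, 582 under SEA, 620.4 under LPS and 216 under SEA/LPS. The first 3 arrays lay close together and the SEA/LPS array stood 2.87-fold below LPS. Rab4b, a GTPase of rapid recycling from early endosomes, read 342 in MEDIA, 325 under SEA, 386 under LPS and 99.0 under SEA/LPS. Again 1 array stood apart, at 3.90-fold below LPS. The difference for Rab1b stayed at 2-fold or more under all 9 alternatives (-1.52 to -1.28). That for Rab4b did so under the 8 that could be computed (-1.96 to -1.72). The other floors, the mean of probe sets and the lower threshold could not change either value. Leaving out flagged probe sets could not change that of Rab1b. The remaining alternatives rescale or transform the signals, and none replaces a replicate array. Each gene has 1 probe set, so no further probe set could be set beside it. Without flagged probe sets Rab4b could not be measured, which left 1 gene.

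Rab32, at -0.74, was the member just outside on the lower side. On the higher side Rab10 (0.66) and Rab18 (0.60) came closest to 2-fold. Rab18, found on the endoplasmic reticulum and lipid droplets, read 570 in MEDIA, 666 under SEA, 499.6 under LPS and 756 under SEA/LPS, so that each array with SEA lay above its partner without it. Its other probe set read 0.25 for SEA over MEDIA and 0.97 for SEA/LPS over LPS. For LPS over MEDIA that probe set read -1.03, against -0.19 on the one used. The comparisons of SEA with MEDIA and of SEA/LPS with LPS share no array.

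SEA/LPS over MEDIA shares its control with the 2 comparisons against MEDIA above, and its values are given beside theirs without being counted as further support. Of 42 genes 5 were higher (11.9%, beside 4.54% of all genes) and 4 lower (9.52%, beside 7.05%). In either direction 21.4% were called, beside 11.6% of all genes. The median was 0.16, beside -0.12 for all genes, a gap of 0.28. Scaling to the hybridisation controls moved both, to -0.11 and -0.42, with a gap of 0.31, and averaging all probe sets of a gene gave -0.05 beside -0.10. On the hybridisation control scale 1 of 43 Rab genes was higher (Rab12) and 8 were lower, beside 3.02% and 15.3% of all genes. Besides Rab32 and Rab12, the higher genes were Rab5a, Rab8b and Rab10, and besides Rab7b and Rab31, the lower genes were Rab1b (-1.37) and Rab4b (-1.79).

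Rab5a, which drives fusion of early endosomes, read 467 in MEDIA, 508 under SEA, 704 under LPS and 964 under SEA/LPS. Rab8b, a GTPase of delivery from the Golgi to the surface, read 1657, 1768, 2772 and 3583 in the same order. For both, the order of arrays was MEDIA, SEA, LPS and SEA/LPS. Rab10, which in macrophages carries TLR4 to the surface, read 1156 in MEDIA, 896 under SEA, 1464 under LPS and 2314 under SEA/LPS. The fold over MEDIA with SEA/LPS was 2.06 for Rab5a, 2.16 for Rab8b and 2.003 for Rab10, and all 3 lay under 2-fold with quantile normalization and with scaling to the hybridisation controls. Rab10 was the member just inside the threshold, and its other probe sets gave 0.79 and 1.23. For LPS over MEDIA those 2 gave 0.52 and 1.10, beside 0.34 on the one used. Rab21, at 1.96-fold, was just outside.

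**Figure D2:**
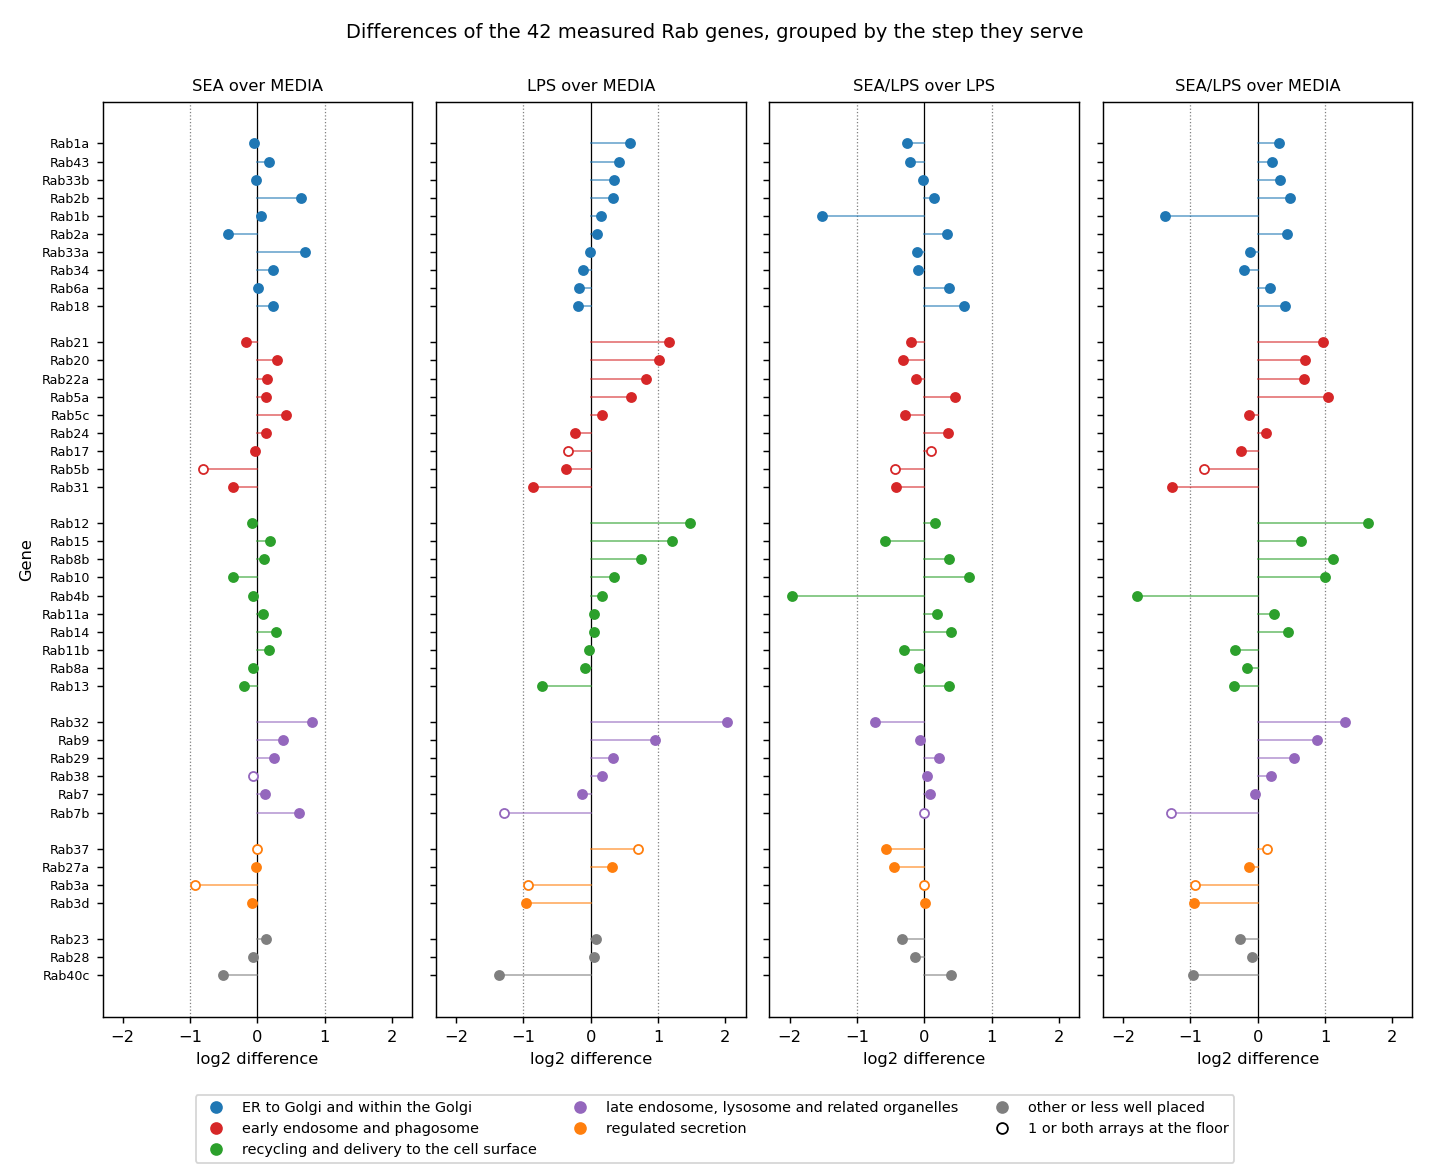
Differences of log2 signal (x axes) in the 4 comparisons for the 42 measured Rab genes, grouped by colour according to the step they serve and ordered within a group by LPS over MEDIA. Dotted lines mark 2-fold and open points have 1 or both arrays at the floor. Golgi genes other than Rab1b lie within 2-fold throughout, and the largest values are those of Rab32 with LPS and Rab4b with SEA/LPS.

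The genes were also grouped by the step they serve. These groups are small, and differences between them were not tested. The 10 measured genes of the step from the endoplasmic reticulum to the Golgi and within the Golgi had 0 members past 2-fold for LPS over MEDIA, beside 14.5% of all genes, and a range from -0.19 to 0.58 on the probe sets used, while a dimmer one of Rab18 read -1.03. The highest was Rab1a, at 2299.7 in MEDIA, 2211 under SEA, 3434 under LPS and 2862 under SEA/LPS. Rab1b was the single gene of this group past 2-fold in any comparison. Rab2a, which acts between the Golgi and the endoplasmic reticulum, read 1443, 1063, 1531 and 1943, with SEA lowest and SEA/LPS highest. Rab6a, of retrograde Golgi traffic, stayed between 557 and 718 on all 4 arrays. Rab33b, which binds the autophagy factor Atg16l1, and Rab43, a Golgi GTPase, stayed between 82.3 and 106 and between 176 and 236. Rab2b, Rab33a and Rab34 were dimmer, with signals from 43.0 to 76.2, and stayed within 2-fold.

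The 9 early endosome and phagosome genes had 2 members higher for LPS over MEDIA (Rab21, Rab20; 22.2%, beside 6.06% of all genes), and their differences ran from -0.86 (Rab31) to 1.16 (Rab21). Rab22a, an early endosome GTPase, read 266 in MEDIA, 294 under SEA, 467 under LPS and 429 under SEA/LPS. Both arrays with LPS lay above both without it on this probe set, at 0.81 for LPS over MEDIA, but its dimmer probe sets read -1.51 and -0.26, so the probe sets of Rab22a did not share a direction. Rab24, linked to autophagy, stayed between 275 and 355. Rab5c stayed within 2-fold at signals up to 115, and Rab17, at up to 42.3, was at the floor with LPS.

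The 10 genes of recycling and delivery to the surface had 2 members higher for LPS over MEDIA (Rab12, Rab15), where 6.06% of all genes were. With SEA/LPS over MEDIA 3 of the 10 were higher (beside 4.54% of all genes) and 1 lower (beside 7.05%). Rab12, counted in both comparisons, also directs the transferrin receptor to breakdown, which the name of this group does not cover. Rab11a, the main GTPase of recycling endosomes, read 1467, 1561, 1521 and 1738 in MEDIA, SEA, LPS and SEA/LPS, with differences over MEDIA of 0.09, 0.05 and 0.25. Rab11b read 501, 564, 492 and 399, and Rab8a 302, 289, 285 and 269.7. Rab14, which serves Golgi and endosome traffic, read between 953 and 1296 on the probe set used. Its other probe sets above the floor ran from -1.06 to -0.05 for LPS over MEDIA, against 0.05 on the one used. Rab13, known from epithelial junctions, read 178 in MEDIA and 108 with LPS (-0.72).

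In the late endosome and lysosome group of 6 genes, 1 was higher (Rab32; 16.7%, beside 6.06% of all genes) and 1 lower (Rab7b; 16.7%, beside 8.43%) for LPS over MEDIA. Rab7, the GTPase that directs late endosomes to lysosomes, read 1939.5 in MEDIA, 2092 under SEA, 1780.4 under LPS and 1881 under SEA/LPS. Its differences lay between -0.12 and 0.11 on the probe set used. The other probe set of Rab7 read 0.53 for LPS over MEDIA and -0.72 for SEA/LPS over LPS. Rab9, which returns mannose 6-phosphate receptors from late endosomes to the Golgi, read 241, 315, 466 and 447. Both arrays with LPS lay above both without it (0.95 and 0.89 over MEDIA), and its difference passed 2-fold when arrays were scaled to the 75th percentile or quantile normalized. Rab29, a relative of Rab32, read 271, 321, 340 and 395, and Rab38, the partner of Rab32 in pigment granules, stayed between 33.2 and 40.2.

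Of 4 measured genes of regulated secretion 0 passed 2-fold in any comparison. Of all genes, 1.28% did for SEA over MEDIA, 14.5% for LPS over MEDIA, 4.87% for SEA/LPS over LPS and 11.6% for SEA/LPS over MEDIA. Rab3a and Rab37 were at the floor on some arrays and Rab3d was 1.95-fold lower with LPS, so this count depends on the floor and the threshold. Rab27a, which docks secretory lysosomes, read between 42.4 and 57.8. Rab37, a secretory granule GTPase, was at the floor in MEDIA and with SEA and read 54.2 with LPS and 36.5 with SEA/LPS. These were at least 1.63-fold and 1.10-fold higher than in MEDIA. Since Rab37 passed the floor on the arrays with LPS alone, no lower value over MEDIA was possible. Rab23 and Rab28, both linked to cilia, stayed between 61.9 and 80.8 and between 159 and 174. Rab3b, Rab3c, Rab4a, Rab6b, Rab25, Rab27b, Rab30 and Rab40b were not above the floor on any array and have no differences here. Rab38, with 40.2 on its brightest array, was the gene just inside the floor, and Rab6b, with 30.9, the gene just outside.

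Of 15 pairs of close relatives, 2 lay apart by 1 log2 or more for SEA over MEDIA, 5 for LPS over MEDIA, 1 for SEA/LPS over LPS and 8 for SEA/LPS over MEDIA. Some genes, such as Rab8b and Rab32, are in more than 1 pair, and the same count over other gene pairs was not made. Of the 2 for SEA over MEDIA, Rab5b with Rab5c has Rab5b at the floor with SEA. The other is Rab2a with Rab2b, where Rab2b read 0.64 on a dim probe set and -0.04 and 0.07 on its others above the floor. A gap within a pair does not depend on a scaling factor per array where all signals lie above the floor. For SEA/LPS over LPS, Rab1a had -0.26 and Rab1b -1.52, so they lay 1.26 log2 apart, the 1 such pair there. For SEA/LPS over MEDIA, Rab8b had 1.11 and Rab8a -0.16. Rab22a had 0.81 and Rab31 -0.86 for LPS over MEDIA, a gap of 1.67 on the probe sets used. Rab7 and Rab7b lay at least 1.16 log2 apart there, with Rab7b at the floor. Rab11a and Rab11b lay within 0.58 log2 of each other in every comparison. Closely related transcripts can share probe sequence, which was not examined here. The probe sets used for Rab11a and Rab4b are of the flagged class (ending in _a_at).

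**Figure D3:**
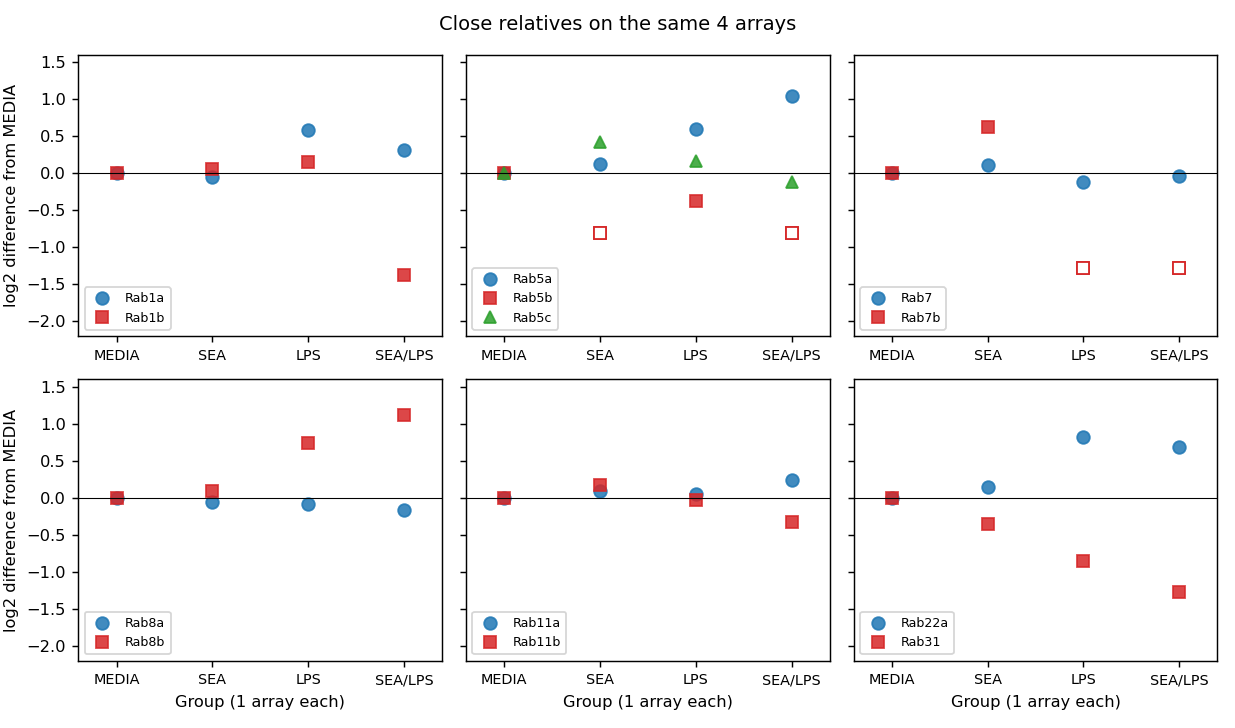
Difference of log2 signal from MEDIA (y axes) for 6 sets of close relatives in the 4 groups, 1 array each, with open points at the floor. Rab1b leaves Rab1a on the SEA/LPS array, Rab8b and Rab22a lie above Rab8a and Rab31 on both arrays with LPS, and Rab11a and Rab11b stay close together. Points are of the probe sets used, and the dimmer ones of Rab22a and Rab31 did not keep this order.

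The regulators of the Rab cycle were described from lists of their genes. Of 22 measured exchange factors, 4 were higher and 2 lower for LPS over MEDIA (27.3%, beside 14.5% of all genes), with a median of -0.24. Sh3bp5, an exchange factor of Rab11, read 120.3 in MEDIA, 114 under SEA, 738 under LPS and 289 under SEA/LPS. It was highest on the LPS array, and the SEA/LPS array lay 2.55-fold below that. Its other probe set was at the floor without LPS and read 377 with LPS and 183 with SEA/LPS. Dennd5a, an exchange factor of Rab39, was higher with LPS (1.36), while Rab3il1, an exchange factor of Rab8, was at the floor with LPS and at least 3.83-fold lower than in MEDIA.

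Hps1, a subunit of the exchange factor of Rab32 and Rab38, read 147 in MEDIA, 124 with SEA and 47.8 with LPS and was at the floor with SEA/LPS. Its difference of -1.62 for LPS over MEDIA ran opposite to that of Rab32 on the same arrays. Rab3ip, an exchange factor of Rab8, read at the floor in MEDIA, and SEA/LPS lay at least 2.88-fold above it. Trappc5, a core subunit of the TRAPP complexes that act on Rab1, read 157, 215, 233 and 98.9, and had -1.24 for SEA/LPS over LPS. Its other probe set read 64.0 with LPS and was at the floor with SEA/LPS. For this comparison 2 of 22 exchange factors (Sh3bp5, Trappc5) were lower (9.09%, beside 3.47% of all genes) and 0 higher (beside 1.39%).

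Of 9 measured chaperone and prenylation genes, 0 passed 2-fold for LPS over MEDIA (beside 14.5% of all genes) and 1 was lower for SEA/LPS over LPS (11.1%, beside 3.47%). This was Rabac1, which encodes a prenylated Rab acceptor of the Golgi. It read 1389.5 in MEDIA, 1336 under SEA, 1224 under LPS and 262 under SEA/LPS, so the SEA/LPS array again stood apart, 4.68-fold below LPS. Gdi2, which retrieves inactive Rab proteins from membranes, read 2166, 2513, 1525 and 1720.4. Rabggta and Rabggtb, the subunits of the enzyme that prenylates Rab proteins, had -0.31 and -0.34 for LPS over MEDIA.

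Of 15 GTPase-activating proteins, 1 was higher (Tbc1d13, which acts on Rab35, 1.46) and 1 lower (Tbc1d22a, -1.08) for LPS over MEDIA, each 6.67%, beside 6.06% and 8.43% of all genes. Of 19 effectors, 0 were higher and 2 lower (10.5%, beside 8.43%), Plin3, a partner of Rab9 (-1.45), and Mical1, which was at the floor with LPS (at least 2.56-fold lower). For SEA/LPS over MEDIA, Bicd2, which links Rab6 to dynein, was also lower (-1.41). Of 10 measured tether subunits, 9 lay below 0 for LPS over MEDIA, as did 5045 of all 9473 genes. Of the 10, 3 were lower (30.0%, beside 8.43%), the exocyst subunits Exoc4 (-1.23) and Exoc7 (at least 2.59-fold) and Vps16 of the HOPS complex (-1.03). The median of the tether list was -0.42 there, beside -0.06 for all genes. The other probe sets of Exoc4 ran from -0.68 to 0.39 for LPS over MEDIA.

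Genes of 2 other groups of small GTPases were set beside the Rab genes. For LPS over MEDIA, 0 of 12 Arf and Sar genes and 1 of 21 Ras, Rap and Ral genes (Mras, -1.74) passed 2-fold, beside 7 of 42 Rab genes (16.7%) and 14.5% of all genes. For SEA/LPS over LPS the counts were 0 and 0 beside 2 (4.76%), where 4.87% of all genes passed. For SEA/LPS over MEDIA they were 0 and 2 (Rap2c at 1.45 and Mras at -1.44) beside 9 (21.4%), where 11.6% of all genes passed. For LPS over MEDIA, the other probe sets of Rap2c read 1.19 and 0.45, beside 0.62 on the one used. With 1 array a group these shares are descriptions, and the difference between these groups was not tested.

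**Figure D4:**
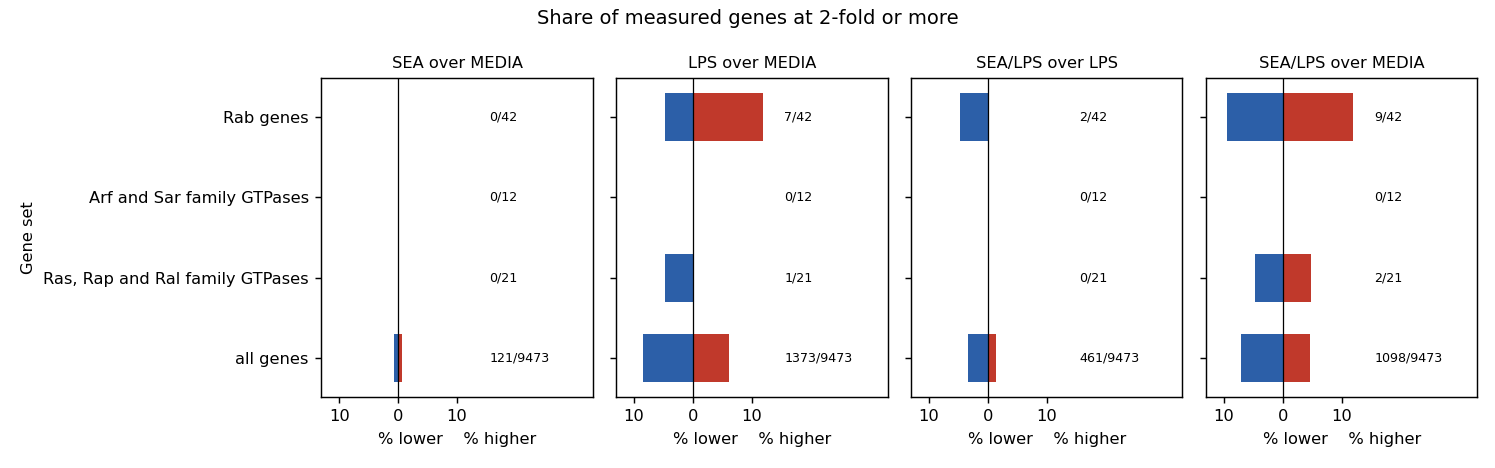
Share of measured genes (x axes, percent) at 2-fold or more, lower to the left in blue and higher to the right in red, for the Rab genes, 2 other groups of small GTPases and all genes, with the count past 2-fold out of those measured at the right. For LPS over MEDIA 7 of 42 Rab genes and 1373 of 9473 genes in all are past 2-fold.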

How the data were processed

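Total RNA of 4 samples was measured on 1 Affymetrix array each. The values are the deposited table of the series: per array, 22690 probe set intensities on a linear scale, judged from the values. Their 2% trimmed means lay at 150.0 on every array, so the authors had scaled them to a common mean, and a difference in total RNA cannot be seen. Software and background correction were not given in the sources used here. Scanner files were not analysed here.

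Probe sets were named through the platform annotation (20380 with 1 symbol, 691 with several, 1555 with none, 64 array controls). Entrez identifiers of 20351 matched the gene table of GRCm38.p6, used for names. The floor was set at percentile 40 of all values (33.3), lower signals were raised to it, and log2 followed. Each gene is represented by its brightest probe set (highest mean floored log2). Where 1 array of a pair is at the floor the difference is a lower bound, written "at least". Genes were counted by size, at 2-fold or more. With 1 sample per group no test was made.

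The alternatives were floors at percentiles 20 and 60, scaling to the 75th percentile or to 18 hybridisation control probe sets, and quantile normalization. Further ones were the mean of all probe sets, leaving out flagged probe sets, log2(signal + 16) without a floor, and a threshold of 1.5-fold. The flag goes by name ending alone (_a_at, _s_at or _x_at), and matches to other genes were not examined. Every measured Rab gene could be named. For the other lists, up to 4 genes per comparison with the largest difference at 2-fold or more could be named. Named besides these were Gdi2, Rabggta, Rabggtb, Itgax, Cd74, Flt3, Cd209a, Csf1r, Cd8a, Thy1 and the Cd3 genes. The members and lists were chosen with earlier results of these data known. 1 further gene list is not reported here. The counting was tested on simulated data. Tools were Python 3.11.15, pandas 2.3.3, numpy 2.4.6 and matplotlib 3.10.9.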

Additional observations from a re-analysis of the deposited data

How the results depend on the processing

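The count of Rab genes at 2-fold or more stayed within 1.5 times of its value as deposited in 29 of 36 comparisons with an alternative setting. This compares totals alone, without direction or the genes counted. For LPS over MEDIA, 5 higher and 2 lower became 1 higher and 6 lower on the hybridisation control scale, with the total unchanged. As deposited the count was 0 for SEA over MEDIA, 7 for LPS over MEDIA, 2 for SEA/LPS over LPS and 9 for SEA/LPS over MEDIA. With a threshold of 1.5-fold it was 6, 16, 5 and 18 in the same order. For SEA over MEDIA it was 1 (Rab3a) with the floor at percentile 20 and 1 (Rab3a) when scaled to the hybridisation controls. For SEA/LPS over LPS it was 1 without flagged probe sets. No called Rab difference changed sign under the alternatives that could be computed, 9 for each gene except Rab12, Rab15 and Rab4b (8). Those genes could not be measured without flagged probe sets. For a gene with a single probe set above both alternative floors, those floors, the mean of probe sets and the lower threshold could not change the value. Nor could leaving out flagged probe sets where that probe set was not flagged. No paired analysis was possible because each group had 1 sample, and for the same reason no replicate could be left out. Signals near the floor, as for Rab3a, Rab5b, Rab37 and Rab38, limit what those genes can show.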
